A study of Homo sapiens with 9 samples.

Results

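The mRNAs of 9 glycolytic enzymes were followed through an eCLIP experiment on malate dehydrogenase 2 (MDH2), a mitochondrial enzyme of the TCA cycle. eCLIP maps the positions at which a protein was cross-linked to RNA in living cells. The genes, chosen by name, were GPI, PFKL, ALDOA, TPI1, GAPDH, PGK1, ENO1, PKM and LDHA, out of 29166 genes with exon counts. All of their exon windows in the deposited table were used, 2104 of 2564772 exon windows in all. A window is a stretch of 50 nt of an exon, and windows start every 20 nt, so that a cross-link site is counted in several windows.

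The cells were Huh7, an established line derived from a human hepatocellular carcinoma. They were UV-cross-linked, and the lysates were sonicated and treated with RNase I before immunoprecipitation (IP). The 9 libraries comprised 3 of the IP with an antibody against endogenous MDH2 (MDH2 IP), 3 of the IP with isotype-matched IgG (IgG IP), and 3 of the size-matched input (SMI), which was set aside before the IP. The PCR ran for 14 cycles in both kinds of IP and for 9 cycles in SMI, so the number of cycles and the IP step cannot be told apart in comparisons with SMI. The exon windows of a library summed to 3249974 to 5078220 counts for MDH2 IP, to 3651665 to 4657949 for SMI and to 506441 to 1134432 for IgG IP. The labels number the replicates without saying whether they came from separate cultures, so the p-values measure only the spread between these libraries, which may be technical. The 8 hepatocyte markers looked up all had counts, with group means between 61.1 and 7409 CPM (counts scaled to the size of the library), whereas the 6 markers of blood cells (PTPRC, HBB and CD3E) and fibroblasts (COL1A1, COL1A2 and DCN) had group means of at most 5.93 CPM. Of these, COL1A2 had 5.56 CPM in MDH2 IP, against 3.83 in SMI and 5.93 in IgG IP, PTPRC, CD3E and COL1A1 had at most 0.869, and HBB and DCN were at 0 in all groups. Levels in these data are counts relative to the library, and they do not separate the amount of an mRNA from how often it was cross-linked.

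Glycolysis converts glucose to pyruvate in the cytosol. In its upper steps, phosphorylated glucose is isomerised (GPI), phosphorylated again by phosphofructokinase at the main point of control (PFKL in liver) and split into triose phosphates (ALDOA, TPI1). In the lower steps, GAPDH reduces NAD to NADH, PGK1 and pyruvate kinase (PKM) form ATP, ENO1 makes phosphoenolpyruvate, and LDHA returns NADH to NAD by reducing pyruvate to lactate. Malate dehydrogenase is tied to the same NADH pool through the malate-aspartate shuttle.

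On GRCh38 the genes lie at chr19:34359480-34402413 (GPI), chr21:44300051-44327376 (PFKL), chr16:30064164-30070457 (ALDOA), chr12:6867119-6870948 (TPI1), chr12:6534512-6538374 (GAPDH), chrX:77910739-78129295 (PGK1) and chr11:18394560-18408425 (LDHA) on the plus strand, and at chr1:8861000-8879190 (ENO1) and chr15:72199029-72231819 (PKM) on the minus strand. Their reference mRNAs are between 1285 nt (GAPDH) and 4812 nt (PGK1) long. The 96 exons listed with counts are not complete for each gene: GPI is represented by exons 5 to 7 and 11 to 14 only.

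Cross-link counts on these mRNAs were compared on the CPM scale with TMM normalization. Of the upper-step enzymes, ALDOA had 545, 401 and 813 CPM in the MDH2 IP libraries, 494, 396 and 643 in SMI and 620, 289 and 545 in IgG IP. TPI1 had 333, 257 and 463 CPM in MDH2 IP, 293, 220 and 335 in SMI and 357, 137 and 420 in IgG IP. GPI had 197, 133 and 228 CPM in MDH2 IP, 208, 173 and 251 in SMI and 220, 135 and 217 in IgG IP. For these 3 enzymes the ranges of all groups overlapped. PFKL behaved differently: it had 126, 108 and 130 CPM in MDH2 IP, 63.2, 60.2 and 59.8 in SMI and 215, 178 and 364 in IgG IP, and none of the ranges overlapped. A gap of this kind was found upwards in 19.9% and downwards in 18.9% of all genes tested between MDH2 IP and SMI, downwards in 9.98% between MDH2 IP and IgG IP and upwards in 16.0% between IgG IP and SMI.

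Of the lower-step enzymes, GAPDH had 1047, 1015 and 1459 CPM in MDH2 IP, 1408, 1397 and 1500 in SMI and 1155, 672 and 1051 in IgG IP. All IgG IP values of GAPDH were below all SMI values, as for 21.9% of all genes tested, whereas MDH2 IP overlapped both. ENO1 had 1021, 872 and 1208 CPM in MDH2 IP, 1118, 841 and 1164 in SMI and 1162, 468 and 798 in IgG IP. PKM had 1133, 842 and 1425 CPM in MDH2 IP, 870, 659 and 1221 in SMI and 1317, 609 and 1035 in IgG IP. PGK1 and LDHA were lower, and PGK1 ranged from 42.9 to 46.6 CPM in MDH2 IP, from 44.05 to 57.2 in SMI and from 27.3 to 53.9 in IgG IP. LDHA ranged from 147 to 330 CPM in MDH2 IP, from 123 to 354 in SMI and from 122 to 288 in IgG IP. The groups of ENO1, PKM, PGK1 and LDHA overlapped in every pair.

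**Figure D1:**
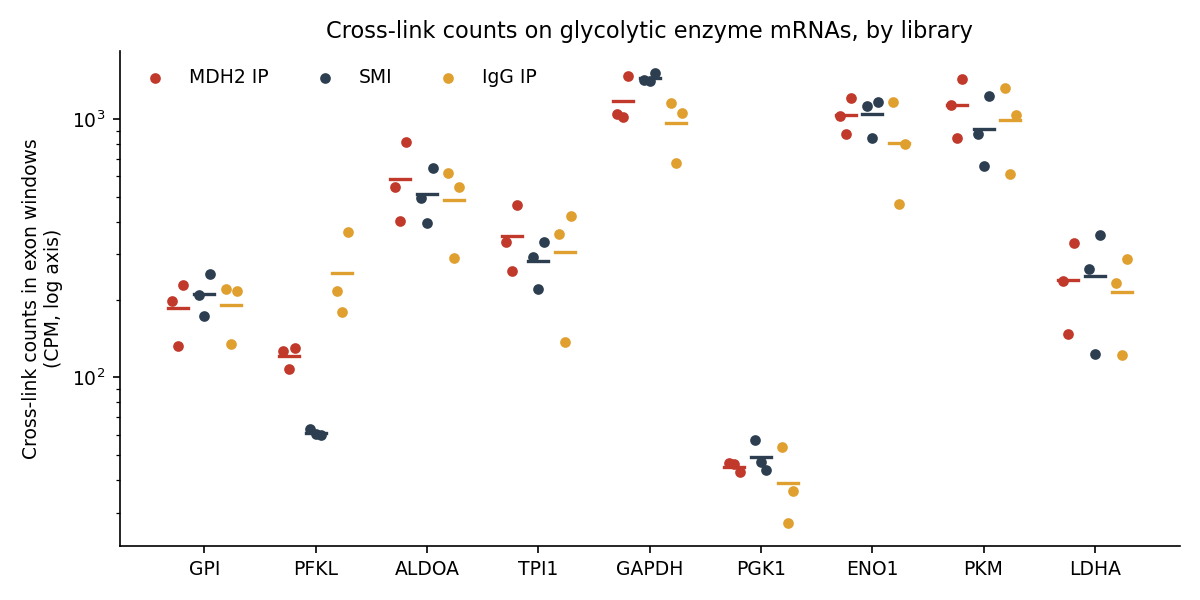
Cross-link counts in exon windows of each gene in every library, in CPM on a log axis, with the 3 groups in separate colours, 1 point per library and a line at each group mean. The groups overlap for most genes, while the PFKL points of SMI (59.8 to 63.2 CPM) lie below those of MDH2 IP and these below those of IgG IP.

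The spread within groups was shared between the genes. Replicate 2 was the lowest of the MDH2 IP libraries for 8 of the 9 genes, the lowest of the SMI libraries for 7 and the lowest of the IgG IP libraries for all 9. The 9 genes together held 0.4905%, 0.3886% and 0.634% of all exon counts in MDH2 IP replicates 1, 2 and 3, 0.4593%, 0.3659% and 0.5289% in SMI, and 0.5315%, 0.272% and 0.4895% in IgG IP. The share differed between MDH2 IP and SMI by 0.053 percentage points (exact two-sided permutation test, p = 0.6, adjusted 0.9 over 3 comparisons) and between MDH2 IP and IgG IP by 0.0734 percentage points (exact test, p = 0.5). With 3 libraries against 3, this test cannot give a p below 0.1.

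Levels of different genes were compared per window spanned, since longer exons hold more windows. The windows also cover exon stretches of other transcripts, outside the reference mRNA. For PFKL, 109 windows of exon 10 and 104 of exon 13 lie outside it, of 407 listed. The order of the genes therefore depends on which exons are annotated, and an order over the reference mRNAs alone was not examined. On this scale the mean level in SMI was 10.03 ± 0.394 CPM per window for GAPDH and 5.78 ± 0.970 for ENO1 (SD, n = 3). PKM (2.35 ± 0.726), TPI1 (2.23 ± 0.457) and ALDOA (2.04 ± 0.496) followed and were not separated beyond their spread. Below them were LDHA (0.850 ± 0.402) and GPI (0.602 ± 0.112), which overlapped, and then PGK1 (0.211 ± 0.0294) and PFKL (0.147 ± 0.00439). In MDH2 IP the order was the same from GAPDH (8.21 ± 1.73) to GPI (0.531 ± 0.139), but PFKL (0.291 ± 0.0282) stood above PGK1 (0.193 ± 0.00864). In IgG IP the mean level of PFKL per window (0.606 ± 0.236) lay above that of GPI (0.545 ± 0.138), within their spread.

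The comparison of MDH2 IP with SMI asks which RNAs were cross-linked in the IP above their level in the input. PFKL was higher in MDH2 IP, by a log2 fold change of 0.96 ± 0.15 (SE; adjusted p = 0.00281, edgeR), which is 1.94-fold. It was the only 1 of the 9 genes called (adjusted p up to 0.05), and 0 were lower, where 8.6% of the 13923 genes tested were called higher and 10.7% lower. The other log2 fold changes lay between -0.32 for GAPDH (adjusted p = 0.21) and 0.28 for PKM (adjusted p = 0.472). Their 95% intervals bounded the differences: for ENO1 from -0.44 to 0.35, for GAPDH from -0.70 to 0.06, for PGK1 from -0.55 to 0.23, for PKM from -0.28 to 0.83 and for LDHA from -0.90 to 0.74. The median of the 9 genes was -0.04, beside 0.04 over the 11551 protein-coding genes tested. Of the 9, 1 had an unadjusted p under 0.05, and DESeq2 also called 1 higher and 0 lower. These fits and intervals do not pair libraries by replicate number. With a block for that number, edgeR called 3 higher and 1 lower, where 2940 and 2875 of all 13923 genes were called. Scaling to total counts in place of TMM moved the median of all genes from 0.005 to 0.167 and turned the sign of ENO1 and LDHA.

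The comparison with IgG IP asks whether the MDH2 antibody recovered more than a control antibody. None of the 9 genes was called in either direction between MDH2 IP and IgG IP by edgeR, where 0.302% of 12573 genes were called higher and 1.8% lower, and 1 had an unadjusted p under 0.05. That gene was PFKL, with a log2 fold change of -1.09 ± 0.26 (adjusted p = 0.0557). DESeq2 called it lower in MDH2 IP (-1.11, adjusted p = 0.00573). The other 8 lay between -0.09 for GPI and 0.31 for ENO1, with 95% intervals from -0.31 to 0.92 for ENO1 and from -0.27 to 0.76 for GAPDH. IgG IP was also set against SMI, so each pair of comparisons shares a group of libraries. PFKL was higher in IgG IP by 2.08 ± 0.26 on the log2 scale (adjusted p = 0.000325), which is 4.23-fold, and was the only 1 of the 9 called, where 9.58% of 12788 genes were called higher and 5.98% lower. GAPDH had a log2 fold change of -0.54 ± 0.22 with an adjusted p of 0.122. The IgG IP libraries were the shallowest, which limits how small a difference could be called.

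**Figure D2:**
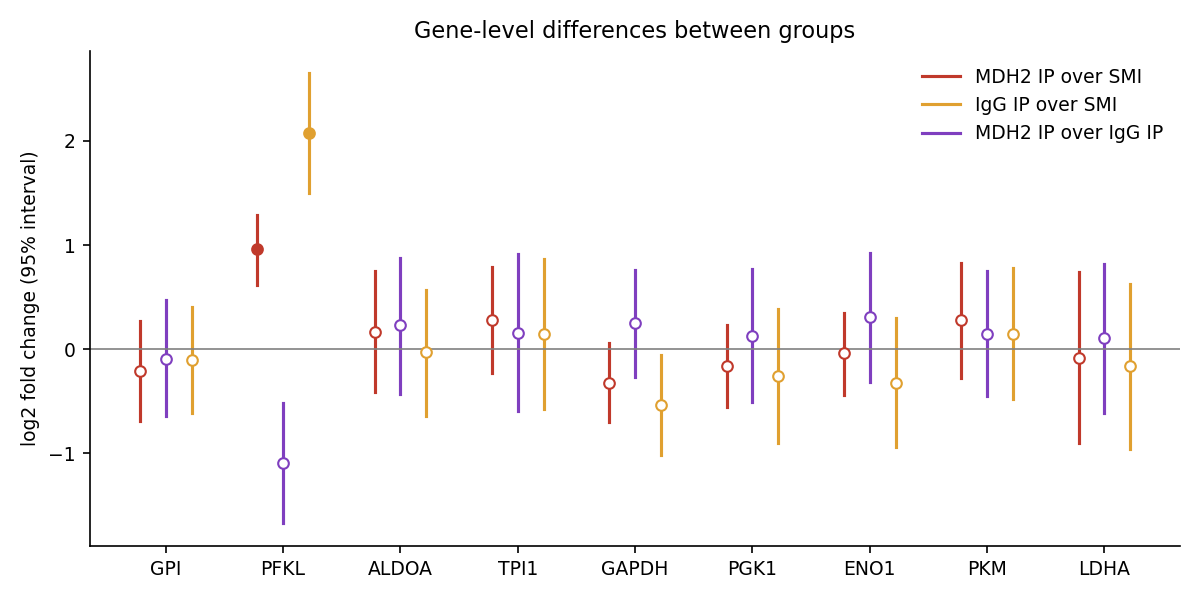
Gene-level log2 fold changes from edgeR (points) with 95% intervals (lines) for MDH2 IP over SMI, MDH2 IP over IgG IP and IgG IP over SMI, where filled points mark an adjusted p of at most 0.05. PFKL stands apart, at 0.96, -1.09 and 2.08, while the other 8 genes lie between -0.54 and 0.31.

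Within the mRNAs, counts were placed differently in the IPs and in the input. In 7 of the 9 genes the last exon held the most SMI counts of all listed exons, and GAPDH (exon 6) and PFKL (exon 13) were the exceptions. Exons are numbered here as in the table, in which overlapping exons of all transcripts are merged. The last exon of TPI1, exon 7, held 33.2%, 31.6% and 34.5% of the exon counts of TPI1 in MDH2 IP, 46.7%, 48.9% and 50.4% in SMI and 34.2%, 31.8% and 30.1% in IgG IP. The last exon of ENO1, exon 14, held 17.6%, 17.6% and 20.2% in MDH2 IP, 29.3%, 26.9% and 28.4% in SMI and 16.7%, 16.5% and 14.2% in IgG IP. In both genes all SMI libraries were above all IP libraries. For PGK1 the last exon held 15.8% ± 1.98 in MDH2 IP and 34.6% ± 5.04 in SMI (SD, n = 3), while the IgG IP libraries ranged from 10.5% to 52.9% on few counts.

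The share in the last exon was lower in MDH2 IP than in SMI in all 9 genes, and the libraries did not overlap in 8 of them, with PFKL as the exception. Such a gap was found downwards in 37.5% and upwards in 6.46% of the 1951 protein-coding genes with at least 50 counts in every library, and 71.5% of them had a lower mean share in MDH2 IP. Pooled over the 9 genes, the share was 23.4% ± 2.30 in MDH2 IP, against 29.2% ± 1.68 in SMI and 21.7% ± 0.432 in IgG IP (SD, n = 3). The difference was -5.84 percentage points between MDH2 IP and SMI (exact permutation test, p = 0.1, the smallest it can give, and 0.158 adjusted over 30 comparisons). Between MDH2 IP and IgG IP it was 1.73 percentage points (exact test, p = 0.3). IgG IP was below SMI without overlap in 6 of the 9 genes, where 31.8% of the 1951 genes showed such a gap and 7.43% one in the other direction. A share does not depend on the scaling of libraries.

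**Figure D3:**
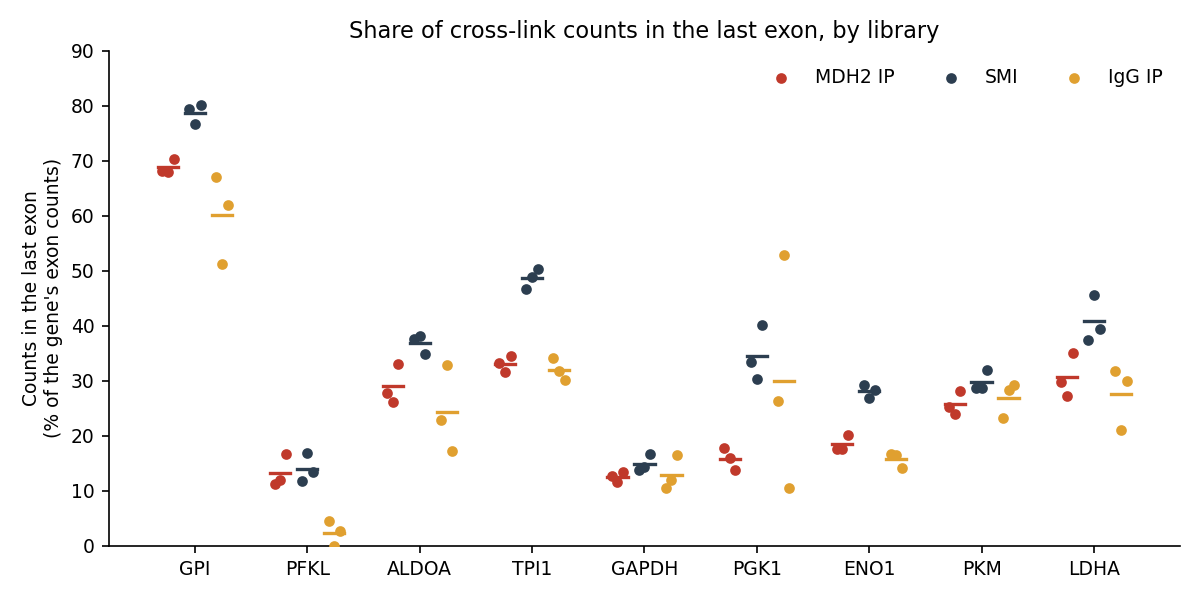
Percent of each gene's exon counts that lay in its last exon, 1 point per library, with a line at each group mean. The SMI points lie above those of MDH2 IP for every gene except PFKL, and the largest gaps are those of PGK1 (15.8% against 34.6%) and TPI1 (33.1% against 48.7%).

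Of the 96 exons listed, 68 had enough counts for a test of MDH2 IP against SMI. With the threshold of 0.05 on the adjusted p, 3 were higher and 5 lower, where 2.66% of all 58684 exons tested were higher and 5.52% lower. These numbers depend on the scaling: with total counts as the library size, which raised the median of all exons from 0.038 to 0.388, 11 were higher and 1 was lower. Of all 58684 exons, 5681 were then higher and 1806 lower. The last exons of PGK1 (exon 12, log2 fold change -1.43 ± 0.31, adjusted p = 0.00685, edgeR), ENO1 (exon 14, -0.81 ± 0.22, adjusted p = 0.0259) and GAPDH (exon 7, -0.73 ± 0.22, adjusted p = 0.0469) were lower, of which PGK1 was also lower with total counts (-1.08 ± 0.31). Among last exons of all protein-coding genes, 19.8% of 8954 were lower. GAPDH was also lower in exon 4 (-0.83 ± 0.22) and in exon 6 (-0.62 ± 0.17), which spans exons 4 to 8 of its main transcript. The first exon of PKM was higher (1.10 ± 0.31, adjusted p = 0.0378), as were exons 10 and 18 of PFKL. First exons of protein-coding genes were higher in 6.93% of 4837 cases.

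Between IgG IP and SMI, exon 14 of ENO1 (-1.26 ± 0.30) and exons 6 and 7 of GAPDH (-0.92 ± 0.25 and -0.89 ± 0.28) were lower, and exon 1 of PKM (1.65 ± 0.50), exon 2 of TPI1 (1.26 ± 0.40) and exons 10, 13 and 18 of PFKL were higher. Those 3 lower and 5 higher exons came from 62 tested, with 4.78% and 4.89% of 38818 exons called. With total counts, 1 was lower and 6 were higher, where 1155 and 2558 of all 38818 exons were. Between MDH2 IP and IgG IP, 0 of 63 exons were higher by edgeR or DESeq2 (1 at an unadjusted p under 0.05) and 2, both of PFKL, were lower, where 0.184% of 42945 exons were higher and 1.25% lower.

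Of the exon counts of the 9 genes, 96.7% could be placed on GRCh38. Of the placed counts, 9.23% ± 0.950 in MDH2 IP, against 6.86% ± 0.498 in SMI and 17.5% ± 5.94 in IgG IP lay outside the MANE Select transcript, the reference mRNA of each gene, and the region shares below are of the counts on it. The 5′ UTR could not be examined in GPI and LDHA, whose first exons were not listed (GPI) or not placed (LDHA, exons 1 to 3). In the 5′ UTRs, all 7 genes with counts placed there had a larger share of their mRNA counts in MDH2 IP than in SMI. How often the 5′ UTR share of other genes moved this way was not examined. For GAPDH the 5′ UTR held 11.4% ± 0.673 of the counts in MDH2 IP, against 5.71% ± 0.791 in SMI and 12.9% ± 1.70 in IgG IP (SD, n = 3). For ALDOA it held 13.3% ± 1.43, 7.98% ± 1.71 and 12.6% ± 3.95. In the 3′ UTRs, 8 of 9 genes had a smaller mean share in MDH2 IP than in SMI, with PFKL as the exception. For ENO1 the 3′ UTR held 15.5% ± 1.31 in MDH2 IP, against 27.0% ± 1.49 in SMI and 12.7% to 15.7% in IgG IP. Pooled, the 5′ UTR share was 7.78% ± 0.701 in MDH2 IP and 4.97% ± 0.211 in SMI, and the 3′ UTR share was 18.6% ± 1.67 and 24.8% ± 1.99 (exact permutation test, p = 0.1 for each, the smallest possible). Between MDH2 IP and IgG IP the pooled 5′ UTR share differed by -0.709 percentage points (exact test, p = 0.4) and the 3′ UTR share by -1.19 (p = 0.5).

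With the 9 genes split by region, the regions were tested in edgeR as features of their own, together with the whole exon counts of every other gene. The 3′ UTR counts of PGK1 (log2 fold change -1.26 ± 0.28, adjusted p = 0.013), GAPDH (-1.04 ± 0.19, adjusted p = 0.00635) and ENO1 (-0.86 ± 0.21, adjusted p = 0.0199) were lower in MDH2 IP than in SMI, 3 of 9. Of all 13950 features 10.8% were called lower, but these are mostly whole genes, here and below, and not UTRs. In the exon fit, 19.8% of 8954 last exons of protein-coding genes were lower and 6.93% of 4837 first exons were higher. GAPDH stayed below the threshold with each library left out in turn (from -1.23 to -0.91), PGK1 in 5 of 6 cases and ENO1 in 3 of 6. The 5′ UTR counts of PKM (1.43 ± 0.38, adjusted p = 0.0276) and TPI1 (1.21 ± 0.35, adjusted p = 0.0369) were higher, 2 of 6 tested, beside 8.6% called higher, and were called in 2 and 1 of 6 such cases. Counts that could not be placed were also higher for ALDOA (1.61 ± 0.46) and GAPDH (0.80 ± 0.23, both adjusted p = 0.0372, edgeR), called in 1 and 0 of 6 such cases, and not called for ENO1 and LDHA. Those of ALDOA were also higher in IgG IP than in SMI (2.16 ± 0.56). The coding sequence was called in 0 of 9 genes by edgeR, and at an unadjusted p under 0.05 it was higher in 2 and lower in 1. Between MDH2 IP and IgG IP, no UTR was called, among 5 genes tested for the 5′ UTR and 9 for the 3′ UTR, and 1 of the latter had an unadjusted p under 0.05. Of all 12599 features in that fit, only 0.302% were called higher and 1.79% lower. Between IgG IP and SMI, the 5′ UTR of PKM was higher (1.86), where 9.57% of features were called higher, and the 3′ UTRs of ENO1 (-1.29 ± 0.29) and GAPDH (-0.94) and the coding sequence of GAPDH (-0.79) were lower, where 5.99% were called lower. With each library left out in turn, the 3′ UTR of ENO1 was called in 5 of 6 cases, and the PKM region and both GAPDH regions each in 1 of 6.

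**Figure D4:**
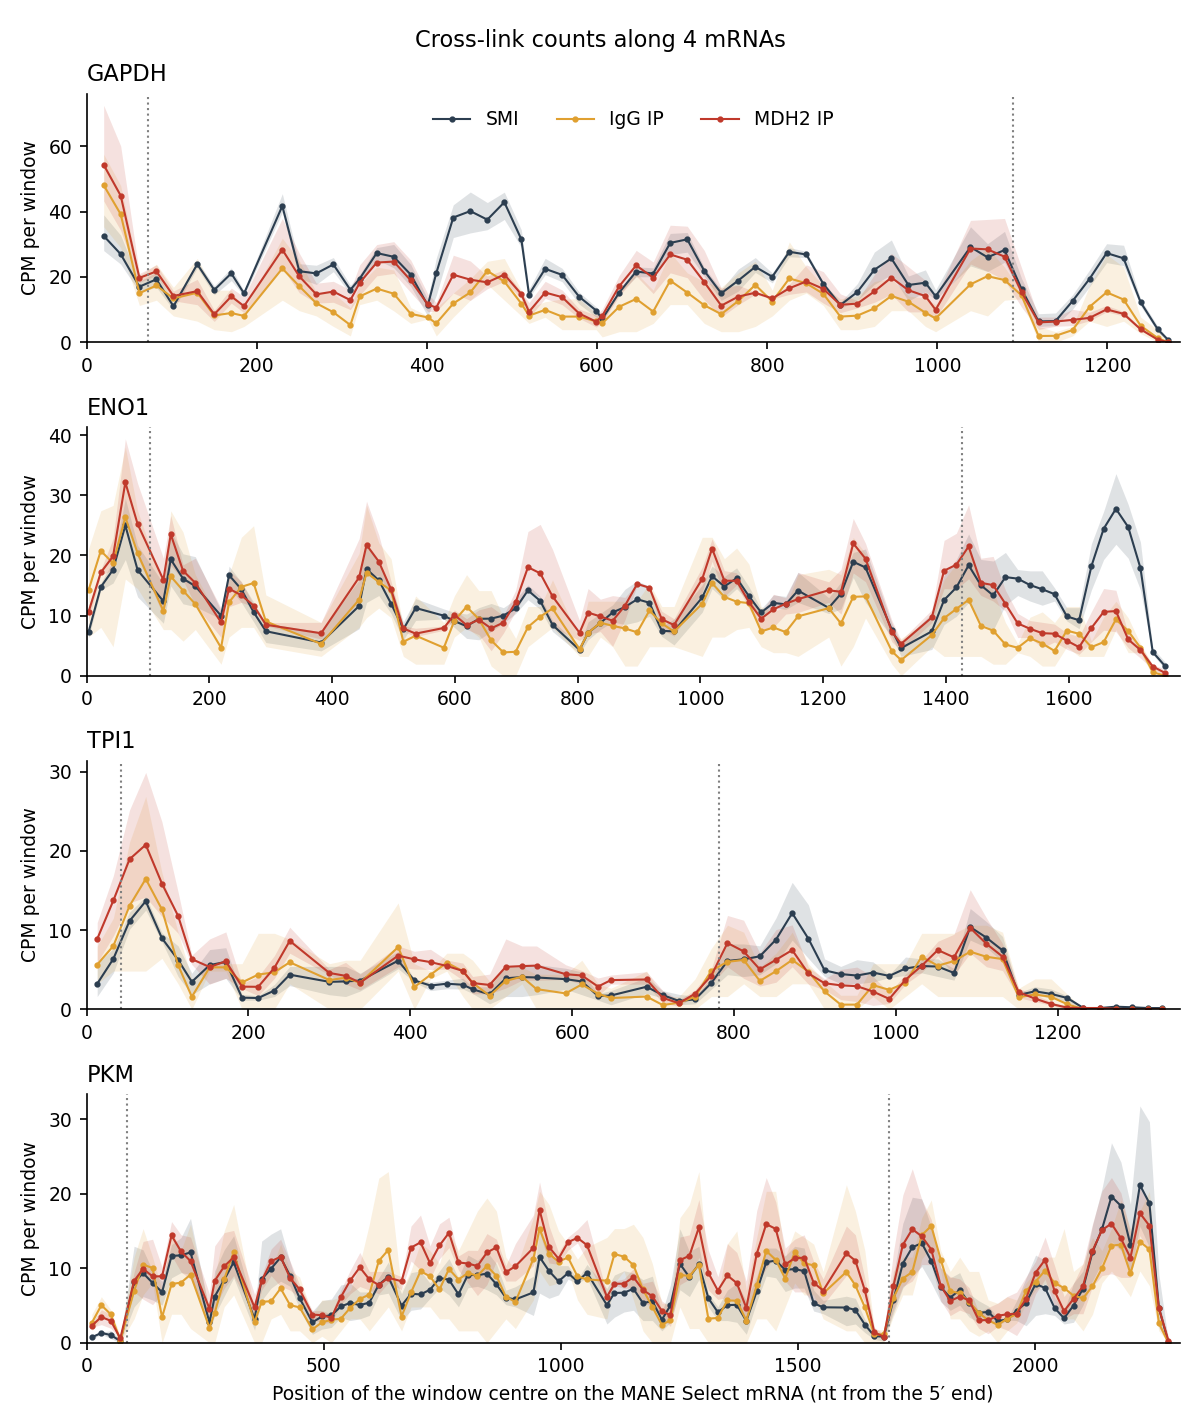
Mean CPM per window along the MANE Select mRNAs of GAPDH, ENO1, TPI1 and PKM, by the window centre in nt from the 5′ end, with bands from the lowest to the highest of 3 libraries and dotted lines at the ends of the coding sequence. The SMI mean lies above both IP means from 1159 nt to the end in GAPDH and from 1497 nt to the end in ENO1, where the first 3 windows of the 3′ UTR have higher means in MDH2 IP, and both IP means lie above SMI in the first 2 windows of GAPDH.

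Single windows were called at a one-sided adjusted p of at most 0.05 together with a log2 fold change past 1. In the comparison of MDH2 IP with SMI, 454 exon windows were tested, of which 2 were higher and 26 lower. Over all genes, where intron windows are included here and below, 4.04% of 51108 windows were higher and 10.0% lower. The split of the 454 windows is also set by the scaling. With total counts, which moved the median of all windows from 0.045 to 0.622, 74 windows of the 9 genes were higher and 5 lower, all 5 being among the 26. Of all 51108 windows, 12171 were then higher and 2380 lower. PFKL and PGK1 had no window with enough counts. The 26 comprised 13 of GAPDH, 9 of ENO1, 2 of LDHA, 1 of TPI1 and 1 of GPI. In GAPDH they fell into 3 groups: windows 162 to 168 of exon 6, windows 220 to 224 at the end of the 3′ UTR, and window 130. In ENO1 all 9 lay in the 3′ UTR. Neighbouring windows share sites and are not separate observations. Between IgG IP and SMI, 1 of 365 windows was higher and 6 were lower, 4 of them in ENO1, where 6.14% of 26669 windows were higher and 6.4% lower. With total counts 13 were higher and 0 lower, where 2199 and 1223 of all 26669 windows were.

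The middle 30 bases of the windows that were higher, and of the lowest window of 4 genes, are printed as examples, and sequence preference was not tested. They are given 5′ to 3′ on the mRNA strand, with AATAAA in capitals, the hexamer that directs cleavage and polyadenylation.
ALDOA, 5′ UTR, higher: ctaaatcggctgcgttcctctcggaacgcg
PKM, coding sequence, higher: ccggatggcgccctggctccggcttcacca
GAPDH, 3′ UTR, lower: accttgtcatgtaccatcAATAAAgtaccc
ENO1, 3′ UTR, lower: gtcatctccggggtggccacaggctagatc
TPI1, 3′ UTR, lower: tccacttactataatggttggaactaaacg
LDHA, 3′ UTR, lower: acatgcctagtccaacattttttcccagtg
Each of these 6 runs has 1 exact match in GRCh38.

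The ALDOA window (exon 6, window 636, bases at chr16:30065789-30065818, plus strand) had 8.37 ± 1.74 CPM in MDH2 IP, against 2.71 ± 0.928 in SMI and 4.41 ± 1.59 in IgG IP (SD, n = 3), a log2 fold change over SMI of 1.51 ± 0.35 (adjusted p = 0.023, edgeR). It lies at bases 30 to 59 of the mRNA of 1640 nt. The PKM window (exon 15, window 33, chr15:72199679-72199708, minus strand) had 7.04 ± 1.64, 2.45 ± 0.936 and 4.77 ± 6.66 CPM, and was higher in MDH2 IP than in SMI (1.45 ± 0.38, adjusted p = 0.0368). It was also called higher in IgG IP (1.70 ± 0.52), but the IgG IP libraries had 14, 0 and 1 counts, so that call rests on replicate 1. DESeq2 called 0 of the 9 genes' windows higher, where it called 1023 of all 51108. The log2 fold changes of these windows between MDH2 IP and IgG IP were 0.93 ± 0.56 for ALDOA and 0.11 ± 0.56 for PKM, both with an adjusted p of 1.0.

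The GAPDH window with the hexamer (exon 7, window 224, chr12:6538330-6538359, plus strand) had 0.809 ± 0.217 CPM in MDH2 IP and 3.995 ± 0.911 in SMI (log2 fold change -2.41 ± 0.46, adjusted p = 0.000834, edgeR). In IgG IP it had 1.28 ± 2.21 CPM and was not called against SMI (-1.89 ± 0.84). These bases are 1244 to 1273 of the mRNA of 1285 nt. AATAAA was present in 13 of the 882 window middles placed on the 9 mRNAs (1.47%), searched on the mRNA strand, and in the last 50 bases of 6 of the 9 mRNAs. The neighbouring windows 221 and 222 had more counts, with 10.04 ± 1.06 and 8.68 ± 0.679 CPM in MDH2 IP and 27.3 ± 2.89 and 25.7 ± 3.48 in SMI. The ENO1 window (exon 14, window 3, chr1:8861050-8861079, minus strand) had 4.28 ± 1.18 CPM in MDH2 IP, against 17.9 ± 4.02 in SMI and 4.65 ± 0.749 in IgG IP, and was lower than SMI in MDH2 IP (-2.14 ± 0.31) and in IgG IP (-1.62 ± 0.48). The TPI1 window (chr12:6870574-6870603, plus strand) had 1.31 ± 0.688 CPM in MDH2 IP, against 4.21 ± 0.188 in SMI and 2.45 ± 2.97 in IgG IP. The LDHA window (chr11:18407626-18407655, plus strand) had 1.78 ± 0.847, 5.76 ± 2.78 and 0.639 ± 1.11 CPM. The LDHA window was also called lower in IgG IP than in SMI (-3.31 ± 1.04), on 0, 0 and 1 counts in IgG IP, and the TPI1 window was not (-0.98 ± 0.71). The middle of the GPI window that was lower occurs in 12108 places of GRCh38. Reads with more than 10 alignments had been discarded, and how many of the reads kept there also match elsewhere was not examined. Between MDH2 IP and IgG IP, 0 of 390 exon windows were called in either direction by edgeR or DESeq2, where 0.148% of 30427 were called higher and 4.71% lower. At an unadjusted one-sided p under 0.05, 23 were higher and 2 lower.

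The windows with the highest MDH2 IP level of each gene lay in the 5′ UTR for GAPDH (54.3 ± 15.9 CPM in MDH2 IP, 32.6 ± 5.72 in SMI, 48.1 ± 11.4 in IgG IP) and ENO1 (32.1 ± 6.57, 25.0 ± 5.18 and 26.3 ± 11.04). The corresponding windows lay in the coding sequence for TPI1, PKM, ALDOA, LDHA and PGK1 and in the 3′ UTR for GPI and PFKL. None of these windows was called, and those of PFKL and PGK1 had too few counts for a test.

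PFKL was the only gene of the 9 called as a whole in the main edgeR fits. A larger part of its counts lay outside the reference mRNA than in the other 8 genes. Its merged exons 10, 13 and 18 (chr21:44313913-44316339, chr21:44319351-44321875 and chr21:44324856-44326060, plus strand) each join several exons of the MANE Select transcript with the introns between them, as some annotated transcripts keep these introns. Exon stretches outside the MANE Select transcript had 67.1, 50.04 and 63.3 CPM in MDH2 IP, 21.9, 19.8 and 25.4 in SMI and 158, 149 and 311 in IgG IP. These groups did not overlap, and how often this held for such stretches of genes outside the 9 was not examined. The coding sequence of PFKL had 46.45, 45.9 and 48.2 CPM in MDH2 IP, 34.4, 31.3 and 28.5 in SMI and 45.1, 27.3 and 46.0 in IgG IP, with IgG IP overlapping SMI and MDH2 IP. The stretches outside the MANE Select transcript held 49.5% ± 3.51 of the placed exon counts of PFKL in MDH2 IP, against 36.7% ± 5.15 in SMI and 80.9% ± 6.31 in IgG IP, compared with at most 22.1% in any group for the other 8 genes. The direction was not particular to PFKL. This share was higher in IgG IP than in SMI in all 9 genes, without overlap in 6. It was lower in MDH2 IP than in IgG IP in all 9, without overlap in 3, and higher in MDH2 IP than in SMI in 7, without overlap in 4.

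Counts outside the MANE Select transcript of PFKL were higher in MDH2 IP than in SMI by 1.39 ± 0.19 on the log2 scale (adjusted p = 0.00156, edgeR), lower in MDH2 IP than in IgG IP (-1.81 ± 0.29, adjusted p = 0.00918) and higher in IgG IP than in SMI (3.23 ± 0.31, adjusted p = 5.2e-05). In these directions 1, 1 and 2 of 8 genes tested for such stretches were called. The other gene called in IgG IP over SMI was TPI1 (1.98 ± 0.50, adjusted p = 0.0195, edgeR). Of all features in these fits, mostly whole genes, 8.6%, 1.79% and 9.57% were called in these directions. By exon, exon 10 had 28.4 ± 5.72 CPM in MDH2 IP, against 11.4 ± 2.15 in SMI and 119.5 ± 47.8 in IgG IP, with log2 fold changes of 1.12 ± 0.28, -2.06 ± 0.32 and 3.27 ± 0.34 for the 3 comparisons. Exon 13 had 20.3 ± 4.08, 12.6 ± 2.37 and 56.9 ± 22.3 CPM. Exon 18 had 27.3 ± 5.08, 9.71 ± 1.83 and 38.7 ± 26.2 CPM. With windows of the MANE Select transcript only, an alternative chosen after these values were seen, PFKL was higher in MDH2 IP than in SMI by 0.62 ± 0.17 (adjusted p = 0.03), its difference from IgG IP turned to 0.34 ± 0.28 (adjusted p = 0.604), and IgG IP over SMI was 0.32 ± 0.30 (adjusted p = 0.511). Under this restriction the calls of the other 8 genes did not change. PFKL introns outside annotated exons held more of its counts in IgG IP as well (52.2% against 36.4% in SMI and 31.8% in MDH2 IP), and the part of unspliced RNA in the PFKL result was not tested.

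**Figure D5:**
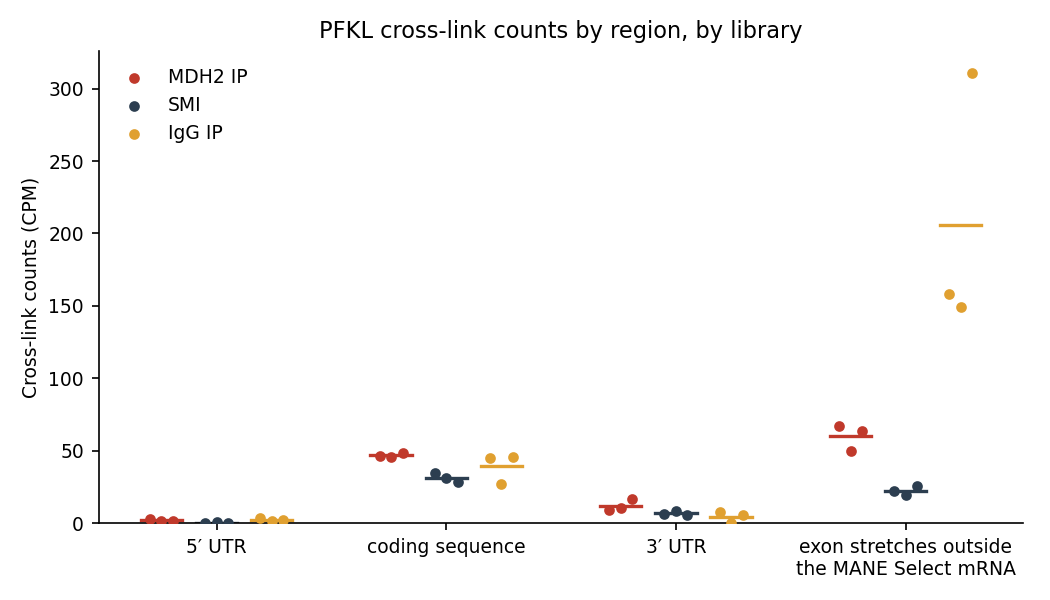
CPM of PFKL in its 5′ UTR, coding sequence, 3′ UTR and exon stretches outside the MANE Select mRNA, 1 point per library, with a line at each group mean. Outside the MANE Select mRNA the groups are separate, at 19.8 to 25.4 in SMI, 50.04 to 67.1 in MDH2 IP and 149 to 311 in IgG IP.

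Introns of the 9 genes held 8.94% ± 1.43 of their exon and intron counts in MDH2 IP, against 9.19% ± 1.29 in SMI and 19.8% ± 5.66 in IgG IP (SD, n = 3). MDH2 IP and SMI overlapped (exact permutation test, p = 0.8), while IgG IP was above both without overlap (p = 0.1 for each, the smallest possible, 0.188 adjusted over 30 comparisons). In the whole table, the exon share of all window counts ran from 53.6% to 59.9% for MDH2 IP, from 43.9% to 49.8% for SMI and from 31.0% to 38.5% for IgG IP. PFKL had the largest intron share of the 9 genes, with 31.8% ± 3.88 in MDH2 IP, against 36.4% ± 5.96 in SMI and 52.2% ± 7.09 in IgG IP. In GAPDH the shares were 5.19% ± 1.30, 2.51% ± 0.554 and 12.5% ± 2.17, and in PKM 10.4% ± 2.32, 15.97% ± 2.74 and 22.6% ± 8.80. LDHA was the only gene whose intron share was lower in IgG IP (4.22% ± 1.86) than in SMI (8.64% ± 0.851) without overlap.

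Of 35 other genes of glycolysis, gluconeogenesis and sugar or lactate transport, 29 had exon counts and 16 could be tested between MDH2 IP and SMI. None of them was called by edgeR in that comparison, where 2 had an unadjusted p under 0.05, and their median log2 fold change was 0.37. None was called between MDH2 IP and IgG IP either, where 14 were tested, 1 had an unadjusted p under 0.05 and the median was 0.04. SLC16A3, a lactate transporter, was the only gene of the list called between IgG IP and SMI (2.23 ± 0.39, adjusted p = 0.00277). It had 119 CPM in MDH2 IP, against 74.8 in SMI and 344 in IgG IP on average, and its log2 fold change between MDH2 IP and IgG IP was -1.57 ± 0.42 (adjusted p = 0.0806). It was the gene with the unadjusted p under 0.05 there.

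Processed pseudogenes of GAPDH, ENO1, TPI1, PKM and LDHA share sequence with the mRNAs, and reads could be divided between them, since reads with up to 10 alignments were kept. The 32 listed pseudogenes of GAPDH held between 0.93% and 3.83% of the GAPDH counts of a library, and those of the other 4 genes at most 4.0%. Adding them changed no call at the gene level.

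The mean profile of the 9 genes over the 9 libraries, as log2(CPM + 1), was compared with that of 2146 protein-coding genes with a mean of at least 100 CPM. TUBA1B (tubulin; Pearson r = 0.977), FASN (fatty acid synthase; 0.968), NME1 (a nucleoside diphosphate kinase; 0.962), ANXA2 (annexin; 0.961) and TUBB4B (tubulin; 0.953) were most like it, as a description over 9 libraries that share their depth and group. Against the same mean profile, r was 0.973 for TPI1, 0.964 for ALDOA and 0.947 for PKM, but 0.606 for GAPDH, 0.478 for PGK1 and 0.207 for PFKL. Each of these genes is part of that mean, so these values cannot be set against those of the genes outside the 9.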

How the data were processed

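The authors trimmed the eCLIP reads (cutadapt, at least 18 nt kept), aligned them to GRCh38 with STAR (up to 10 alignments per read), removed PCR duplicates by their molecular identifiers, and, per the file headers and their methods, deposited raw cross-link site counts per library in windows of 50 nt placed every 20 nt along GENCODE 23 gene models. The 9 genes and the gene lists were chosen with earlier results of these data known. Exon windows were summed per gene and per exon. edgeR 4.0.16 (R 4.3.3; quasi-likelihood test, TMM, Benjamini-Hochberg over all features with at least 10 counts in 3 libraries) compared the groups, with DESeq2 1.42.0 as an alternative. Since windows overlap, summed counts exceed the number of sites. Window positions were inferred by matching window numbers to GENCODE 44 exons on GRCh38, good to about 20 nt where only 1 exon end matched, and 173 of 2104 windows were not placed. For shares, an exact permutation test (two-sided) was used. Named were all 9 genes, their last exons, the exon with most SMI counts, exons and windows called, the highest window, other pathway genes called, and the 5 genes most like the 9. On simulated counts for MDH2 IP against SMI, 98.5% of 200 genes changed 4-fold were recovered among 13582 genes, with 14 false calls. Of 200 exons and 200 windows changed 4-fold, 87% and 96% were recovered. Smaller changes and comparisons with IgG IP were not simulated. Python 3.11.15 and scipy 1.17.1 were used.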

Additional observations from a re-analysis of the deposited data

How the results depend on the processing

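Of 486 single-gene values under other settings, 426 kept their direction and side of the threshold, 15 passed the threshold only there, 1 lost it and 44 changed sign, all of them of genes not called. Called genes among the 9, MDH2 IP over SMI: 2 higher with introns added. MDH2 IP over IgG IP: PFKL made 1 lower with DESeq2, no filter, at least 50 counts, all 9 libraries in one fit, windows that do not overlap, or introns added. IgG IP over SMI: 0 higher with MANE Select windows only, and 1 lower without a filter. With total counts as library size, exons were 11 higher and 1 lower (MDH2 IP over SMI) and 1 lower (IgG IP over SMI), and windows were 74 higher and 5 lower, and 13 higher and 0 lower. The numbers over all features at this scaling are given with these results above. DESeq2 gave 0 higher and 16 lower windows for MDH2 IP over SMI (1023 and 3917 of all 51108). For IgG IP over SMI it gave 0 higher and 1 lower (1403 and 981 of all 26669), where a minimum of 5 counts gave 12 lower (2038 of all 79321). The intron share of MDH2 IP less SMI was 0.177 percentage points with windows that do not overlap. The causes were not tested.

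Signs turned as follows. MDH2 IP over SMI was 0.12 for ENO1 and 0.07 for LDHA with total counts, and 0.27 (ENO1), 0.13 (PGK1), 0.15 (GPI), 0.05 (GAPDH) and 0.2 (LDHA) with introns added. MDH2 IP over IgG IP was -0.26 for PGK1 with windows that do not overlap, 0.06 for GPI without a filter, 0.29 with introns added and 0.07 with MANE Select windows, which gave 0.34 for PFKL. IgG IP over SMI was 0.02 for PGK1 and 0.04 for ALDOA with windows that do not overlap, -0.06 for TPI1 with MANE Select windows, and for ALDOA 0.03 with total counts and 0.02 with at least 50 counts.

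With 1 library left out at a time, MDH2 IP over SMI gave 1 gene higher and 0 to 1 lower (GAPDH without MDH2 IP replicate 3, -0.5, adjusted p = 0.0473), 1 to 4 exons higher and 1 to 6 lower, and 0 to 6 windows higher and 10 to 29 lower. MDH2 IP over IgG IP gave 0 genes higher and 0 to 1 lower, 0 exons higher and 1 to 2 lower, and 0 windows. IgG IP over SMI gave 1 gene higher and 0 lower, 2 to 6 exons higher and 1 to 4 lower, and 0 to 9 windows higher and 2 to 10 lower. Log2 fold changes that crossed 0 ran, for MDH2 IP over SMI, from -0.18 to 0.07 (ENO1), -0.41 to 0.25 (LDHA) and -0.14 to 0.38 (ALDOA). For MDH2 IP over IgG IP they ran from -0.1 to 0.41 (PKM), -0.07 to 0.46 (PGK1), -0.27 to 0.1 (GPI), -0.19 to 0.44 (TPI1), -0.19 to 0.36 (LDHA) and -0.06 to 0.44 (ALDOA). For IgG IP over SMI they ran from -0.09 to 0.41 (PKM), -0.26 to 0.1 (GPI), -0.14 to 0.51 (TPI1), -0.53 to 0.14 (LDHA) and -0.23 to 0.24 (ALDOA). The share of all exon counts ranged from -0.0118 to 0.111, -0.0061 to 0.131 and -0.0706 to 0.0591 percentage points in the 3 comparisons, the last-exon share from -7.04 to -4.74, 0.534 to 2.83 and -8.34 to -6.67, and the intron share from -0.987 to 0.543, -14.1 to -8.95 and 8.7 to 13.8.

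Same-numbered libraries of MDH2 IP and SMI had correlated deviations of 0.075, 0.485 and 0.497, against -0.483 to 0.061 for libraries of unlike number. For MDH2 IP and IgG IP these were -0.008, 0.222 and 0.258, against -0.259 to 0.06. Replicates 2 and 3 thus varied together by number, but the methods name no pairing and the main fits used no block. With the replicate block, MDH2 IP over SMI gave 3 genes higher and 1 lower, where 2940 and 2875 of all 13923 genes were called. It gave 10 exons higher and 9 lower (4023 and 5378 of all 58684), and 10 windows higher and 31 lower (3777 and 6027 of all 51108). MDH2 IP over IgG IP gave 1 gene lower, where 614 of all 12573 were. IgG IP over SMI gave 1 gene lower (1252 of all 12788), 6 exons lower (1770 of all 38818) and 0 windows higher (1604 of all 26669). The shallow IgG IP libraries limit how small a difference from them could be called.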
